A study of Mus musculus with 8 samples.

Results

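The levels of 48 mouse genes of mitosis were compared across 8 tumors. The genes encode mitotic cyclins and kinases and proteins of chromosomes, kinetochores, the spindle and the cleavage furrow. The members were taken by name from a given list, matched to the gene identifiers of a table of raw RNA sequencing counts. All 48 of 48 were found, among 49671 genes in the table, and all 48 passed the filter on low counts. The tumors are 1 group without a control, of genotype HprtCre; Ewsr1-loxP; Atf1-loxP, so every animal carries Cre at the Hprt locus and loxP sites in Ewsr1 and Atf1, whose recombination joins the genes. The corresponding human fusion characterises clear cell sarcoma of soft tissue. The tumors received no drug, were frozen at primary tumor morbidity and are numbered 1, 2L, 2R, 3, 4a, 4b, 5 and 6 in the titles. The labels give neither the animals' age or strain nor the cells in which Cre acted. No library is labelled as a separate animal, so p-values refer to libraries and not to animals. Tumor RNA is a mixture. Of 7 melanocytic markers 1 passed the filter, and Tyr, Tyrp1 and Mlana had no count in any library. In library 3, where 5 of the 7 had no count, the list summed to 204.5 CPM (counts scaled to library size). In the other 7 libraries it summed to 38.6 to 62.3 CPM.

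Mitosis divides the copied chromosomes between daughter cells. Cyclin-dependent kinase 1 with its cyclins starts it, condensins compact the chromosomes, and kinetochores attach them to the spindle, while a checkpoint holds back the anaphase-promoting complex until all are attached. Many of these genes are transcribed mainly in late S, G2 and M phase under FOXM1, B-MYB and the MuvB complex, often through CCAAT boxes and the cell cycle genes homology region (CHR), a short element near the start site. Their RNA is widely used as a sign of dividing cells. In a bulk tumor, fewer dividing cells and less mitotic RNA per cell cannot be told apart, nor can dividing tumor cells be separated from dividing host cells.

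Many members have these elements near their start, and the windows of Mki67 and Aspm, the members that followed the common course of the list most closely, are printed to show them. Capitals mark CHR letters (TTTGAA or TTCGAA) and the CCAAT box, each on either strand, in the 250 bases before the start that RefSeq gives, written 5′ to 3′ on the gene's strand. Mki67 lies at chr7:135716380-135716629 (minus strand), and Aspm at chr1:139454523-139454772 (plus), both from RefSeq on build GRCm38.p6.
Mki67: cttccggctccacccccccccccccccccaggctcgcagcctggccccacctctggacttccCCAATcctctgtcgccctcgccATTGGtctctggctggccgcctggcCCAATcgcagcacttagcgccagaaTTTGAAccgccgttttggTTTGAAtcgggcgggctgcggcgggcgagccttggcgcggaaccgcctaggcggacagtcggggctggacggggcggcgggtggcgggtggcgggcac
Aspm: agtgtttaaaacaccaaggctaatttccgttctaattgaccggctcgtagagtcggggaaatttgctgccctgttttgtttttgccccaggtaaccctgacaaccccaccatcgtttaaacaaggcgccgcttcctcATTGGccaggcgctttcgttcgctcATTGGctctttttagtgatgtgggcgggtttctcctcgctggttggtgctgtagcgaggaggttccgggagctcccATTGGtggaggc

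The Mki67 window holds 2 CHR matches and 3 CCAAT matches, and that of Aspm 3 CCAAT matches and no CHR match. The windows of Cit and Pttg1, the members that followed the common course least, held no match of either kind. Whether the elements relate to that course was not tested. Windows were available for 41 of the 48 members, some with more than 1 start. Of the 43 member windows, 41.9% held a CHR match, against 17.1% of all 32851 RefSeq windows of the same length. A CCAAT box was found in 72.1% of member windows, against 33.8% of all windows. Both elements were present in 37.2% of member windows, against 6.0% of all windows. Starts differ between annotations: 22 of the 43 member windows lay outside the gene as GENCODE annotates it, 15 partly and 6 wholly inside, and those 6, of Cdca8, Cit, Kif14, Kif2c, Kif4 and Pttg1, may follow another start. A match of letters is a description of the sequence, not of factor binding.

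The libraries held 4817902 counts in 3 and between 7847571 and 19682149 in the other 7. Library 3 stood apart in composition: mitochondrially encoded genes took 33.8% of its counts and the noncoding genes Gm26917, Gm42418 and Gm23935 took 39.9%, against 1.81% to 27.3% and 0.551% to 14.3% in the other 7. The 48 members together had 7019 counts in library 3, the lowest member 13, and between 8342 and 39074 in the others. Unless stated otherwise, levels are CPM with edgeR's TMM factors, which assume that most genes do not differ.

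After TMM scaling, library 3 had the most mitotic RNA and libraries 2L and 6 the least. Of 48 members, 37 had their highest level in library 3, against 29.6% of the 11505 genes that passed the filter, and 23 of them were at least 2-fold above the next library, against 8.70% of all genes. None was lowest there, although 31.2% of all genes were. Library 2L was the lowest for 28 members (12.2% of all genes) and library 6 for 15 (16.4% of all genes). Library 4a was the highest for 8 members (7.67% of all genes): Anln, Bub1, Ccnb2, Cdk1, Nuf2, Nusap1, Smc2 and Ttk. The 3 remaining peaks were Pttg1 in 2R, Smc4 in 4b and Kif18a in 5 (8.42%, 8.90% and 8.23% of all genes). Lowest in 4b were Pttg1 and Ube2c (9.39% of all genes), and 1 member each was lowest in 1 (Ccnb2), 2R (Espl1) and 5 (Prc1), against 7.13%, 6.67% and 9.38% of all genes. The median of the members' log2 CPM, each relative to its own mean over the 8 libraries, was 1.24 in library 3, 0.30 in 4a, -0.02 in 2R, -0.06 in 4b, -0.13 in 1, -0.18 in 5, -0.52 in 6 and -0.58 in 2L. The same median over all genes lay between -0.03 and 0.02 in every library, which TMM scaling largely sets.

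**Figure D1:**
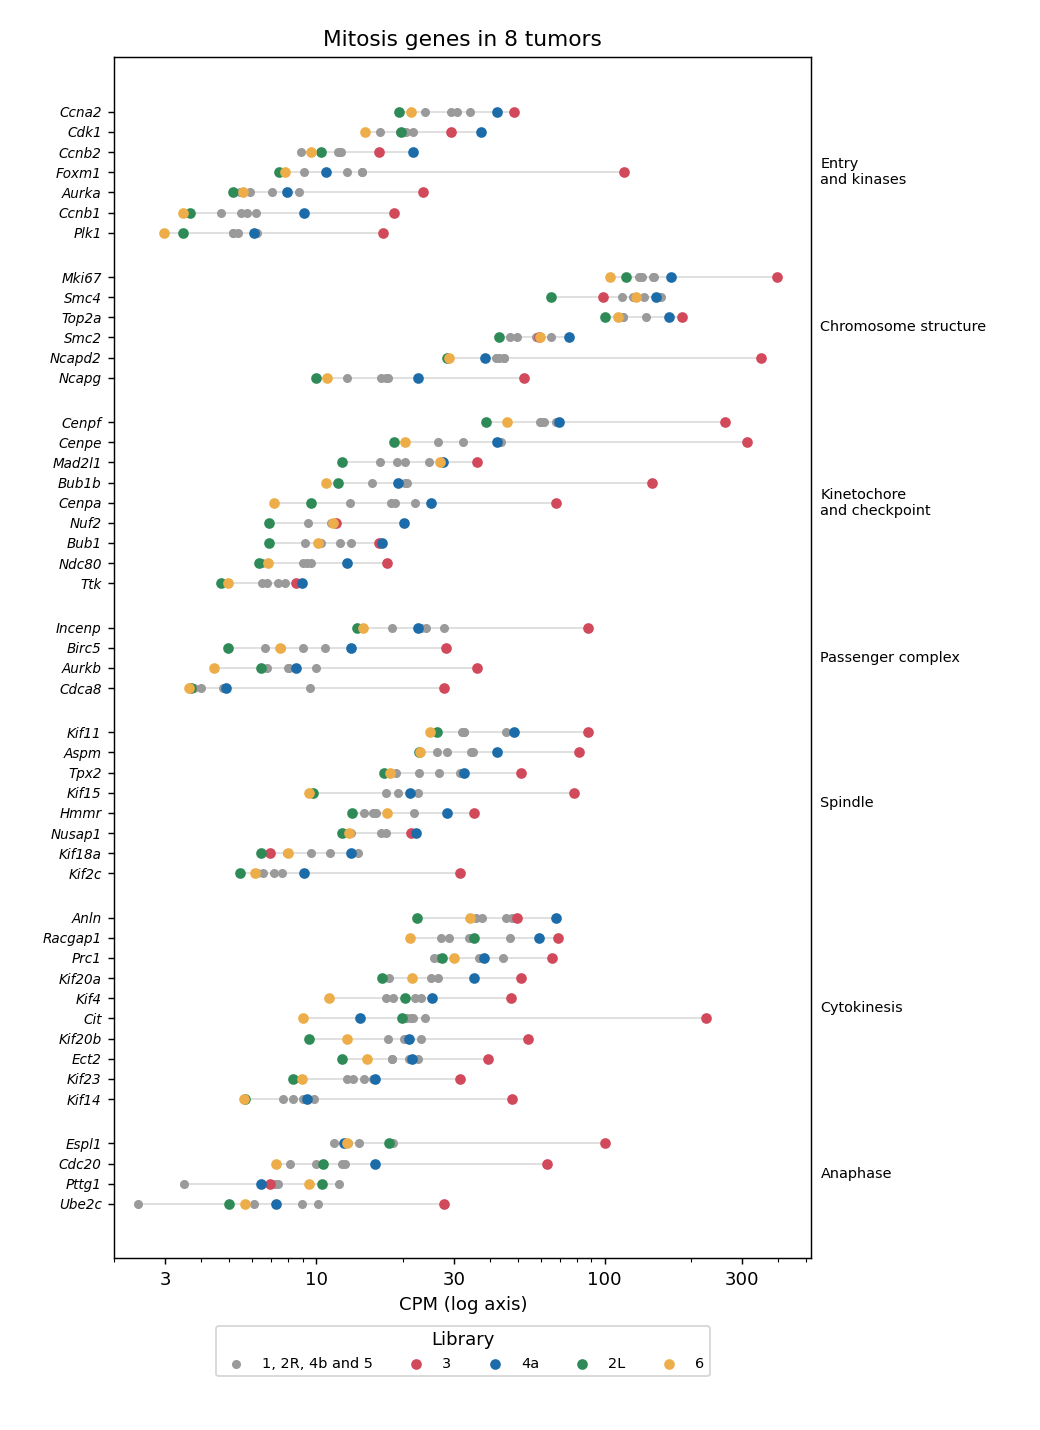
CPM on a log axis of each of the 48 members (rows, grouped by role) in the 8 libraries, 1 point per library with libraries 3, 4a, 2L and 6 in colour and a line from the lowest to the highest value. Library 3 is the highest for 37 members and lies far to the right for Cenpe, Cit, Ncapd2 and Foxm1, while 2L or 6 is the lowest for 43, all with TMM scaling.

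Whether library 3 ranks first depends on the scaling. With library totals alone, the median of all genes in library 3 was -1.36 on the log2 scale, against -0.03 with TMM, and the members' median was -0.10. Then 32 members were highest in 4a, 15 members were highest in library 3 and 16 were lowest there, while 5 were lowest in 2L and 10 in 6. The shares of all genes under this scaling are not given here, and those given for TMM do not apply to these counts. In 4a the median with totals was 0.71 for members and 0.41 for all genes. Relative to the shifted median of all genes, the members stood at 1.26 in library 3. A scaling factor moves members and all genes of a library alike, so this value could hardly differ between scalings. Members made up 0.146% of all counts in library 3, against 0.106% to 0.212% in the others. Of the counts outside mitochondrial genes and the 3 abundant noncoding genes they made up 0.577%, against 0.129% to 0.229%. Ranks within a library need no scaling: among all genes kept, the median member stood at percentile 66.89 of level per length in library 3 and between percentiles 21.53 and 41.04 in the others, and 37 members again had their highest percentile in library 3.

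**Figure D2:**
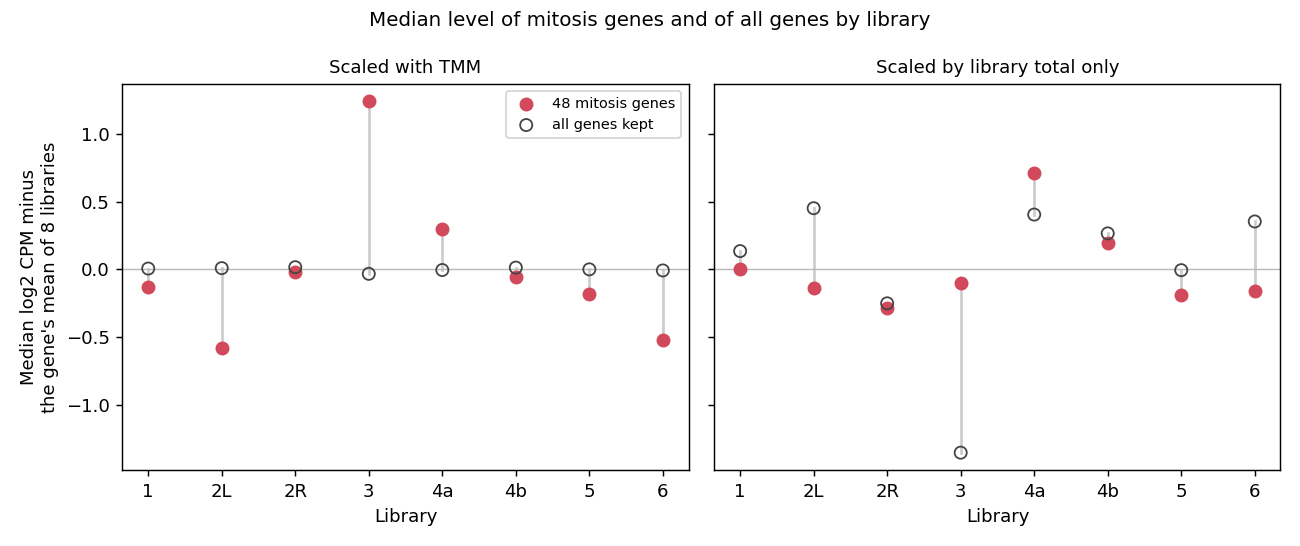
Median over the 48 mitosis genes (filled) and over all genes kept (open) of log2 CPM minus each gene's mean of the 8 libraries, by library, scaled with TMM (left) or by library totals only (right). In library 3 the members stand at 1.24 with TMM and at -0.10 with totals, where all genes stand at -1.36.

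Some markers of other cells also differed between these libraries. In library 3, all 6 of 6 macrophage markers and 4 of 5 fibroblast markers were at their lowest, with summed levels of 223 and 928 CPM, against 757 to 2639 CPM and 1237 to 12550 CPM in the other 7, and no marker of either list was at 0. The endothelial and pericyte sums were lowest there too, at 229.6 and 155 CPM, against at least 291 and 209.5 CPM elsewhere. Of single markers, 1 of 5 endothelial and 2 of 4 pericyte markers were lowest there, against 31.2% of all genes. The melanocytic sum was highest in library 3, although 5 of the 7 melanocytic markers had no count there. The sums of 6 further lists (T and NK cells, B and plasma cells, granulocytes, erythroid cells, keratinocytes and fat) were neither highest nor lowest in library 3. Library 6 had the highest macrophage sum, 2639 CPM. The 4 skeletal muscle markers summed to 17950 CPM in 2L and 5962 CPM in 3, and to between 8.31 and 92.3 CPM in the other 6 libraries. The part of these cells in the order of the libraries was not tested.

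Without library 3, refiltered and rescaled, 4a took its place. In that set 28 of 48 members were highest in 4a, against 9.75% of 12658 genes, while 28 were lowest in 2L and 15 in 6 (18.7% and 18.4% of all genes). The median of the members was 0.44 in 4a, 0.19 in 2R, 0.14 in 4b, 0.04 in 5, 0.03 in 1, -0.36 in 6 and -0.43 in 2L. The members varied about as much as other genes over these 7 libraries: the median SD of log2 CPM was 0.384 for members and 0.407 for all genes. Over all 8 libraries it was 0.591 for members and 0.513 for all genes. Much of this was shared: after the list's own median was subtracted in each library, the median SD of a member was 0.372 over 8 libraries and 0.239 over 7. Mki67 and Aspm lay closest to that common course, each with an SD of 0.12 around it, and Cit and Pttg1 lay farthest, at 0.92 and 0.89.

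The regulators of entry into mitosis were moderate in level except in library 3. Ccna2, the cyclin of S phase and early mitosis, ranged from 19.4 CPM in 2L over a median of 30.1 to 48.5 CPM in 3. Ccnb2, a B-type cyclin that activates CDK1, ranged from 8.88 CPM in 1 over a median of 12.1 to 21.6 CPM in 4a. Cdk1, the kinase both cyclins bind, varied least of the 7 regulators, from 14.8 CPM in 6 over a median of 20.1 to 37.4 CPM in 4a. None of these 3 put library 3 far above the rest. Foxm1, the transcription factor that drives many G2 and M phase genes, did: it stood at 117 CPM in library 3 and between 7.45 and 14.5 CPM in the other 7, with a median of 11.8. The remaining members of this role, Aurka, Plk1 and Ccnb1, had medians of 6.45, 5.26 and 5.61 CPM and were highest in library 3 at 23.4, 17.0 and 18.6 CPM.

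By mean level per length over the libraries, genes of chromosome structure held the 5 highest members, Ncapd2 with a mean raised by library 3. By mean percentile Ncapd2 stood at 61.2, below Ccnb2 at 66.1. Smc4, an ATPase subunit of the condensins, averaged 23.5 CPM per kb of exon, and its percentile among all genes averaged 88.5. Its level ran from 65.0 CPM in 2L over a median of 127 to 157 CPM in 4b, and library 3, at 99.1 CPM, was below the median. Smc2, its partner ATPase, was the steadiest of all 48, with an SD of log2 CPM of 0.26 and a range from 43.1 CPM in 2L over 58.52 to 75.5 CPM in 4a. Ncapd2, a non-ATPase subunit of condensin I, behaved differently: it stood at 348 CPM in library 3 and between 28.4 and 44.8 CPM in the other 7. Subunits of 1 complex thus differed in the same library. Mki67, which coats mitotic chromosomes, ranged from 105 CPM in 6 over 141 to 396 CPM in 3. Top2a, the topoisomerase that untangles sister DNA, spanned only 100.2 to 185 CPM. Ncapg, another condensin I subunit, had a median of 17.1 CPM and reached 52.7 CPM in library 3.

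At the kinetochore, Cenpe and Bub1b led per length and were also among the most uneven members. Cenpe, a motor that carries chromosomes to the spindle equator, stood at 312 CPM in library 3 and between 18.6 and 43.8 CPM in the other 7, with a median of 37.2. Bub1b, which encodes the checkpoint protein BUBR1, stood at 145 CPM in 3 and between 10.9 and 20.7 CPM in the others. Cenpf, a large kinetochore protein, reached 262 CPM in 3 and lay between 38.7 and 69.7 CPM elsewhere. Cenpa, the histone H3 variant that marks centromeres, ranged from 7.15 CPM in 6 over 18.5 to 67.7 CPM in 3. By contrast, Ttk, the checkpoint kinase MPS1, stayed within 4.66 and 8.90 CPM and peaked in 4a. Nuf2, a subunit of the NDC80 complex, was highest in 4a at 20.2 CPM, with 11.7 CPM in library 3 and a median of 11.5. The other members of this role, Ndc80, Bub1 and Mad2l1, had medians of 9.15, 11.2 and 22.5 CPM and spanned at most 2.95-fold over the 8 libraries.

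All 4 subunits of the chromosomal passenger complex were highest in library 3. Incenp, the scaffold, ranged from 13.8 CPM in 2L over 22.8 to 87.3 CPM in 3. Aurkb, its kinase, ranged from 4.43 CPM in 6 over 8.04 to 36.2 CPM in 3. Birc5, which encodes survivin, was the steadiest of the 4, from 4.94 CPM in 2L over 8.29 to 28.2 CPM in 3. Cdca8, which encodes borealin, was the most uneven: library 3 had 27.7 CPM, 2R had 9.50 CPM, and the other 6 lay between 3.62 and 4.89 CPM.

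Spindle genes mostly followed the common course. Tpx2, an activator of Aurora A on spindle microtubules, ranged from 17.1 CPM in 2L over 24.8 to 51.1 CPM in 3. Kif11, the motor that pushes spindle poles apart, ranged from 24.8 CPM in 6 over 32.5 to 87.9 CPM in 3. Both had their second highest value in 4a. Kif15, a motor that overlaps with Kif11 in function, had the largest SD of this role and stood at 78.3 CPM in 3 and between 9.43 and 22.6 CPM elsewhere. Nusap1, a microtubule-bundling protein, had the smallest, spanning 12.3 to 22.1 CPM. Kif18a, which limits chromosome movements at the spindle equator, was the member of lowest level per length, at 0.982 CPM per kb, and peaked in library 5 at 14.0 CPM, with 6.92 CPM in library 3 (13 counts). Hmmr, Aspm and Kif2c had medians of 16.9, 31.4 and 6.87 CPM and were all highest in 3.

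Among cytokinesis genes, Cit had the largest fold of library 3 over the next library of all members, 9.39, although its gap as a share of its log2 range, 0.698, was not the widest. Cit encodes citron kinase of the midbody, and the locus also gives a neuronal form without the kinase domain, which gene counts do not separate. It stood at 224 CPM in library 3, against a second highest value of 23.9 CPM in 1, a median of 21.02 CPM and a lowest of 8.98 CPM in 6. Kif20a, a motor of the central spindle, ranged from 16.9 CPM in 2L over 23.3 to 51.1 CPM in 3. Racgap1, a subunit of centralspindlin, ranged from 21.2 CPM in 6 over 34.5 to 68.7 CPM in 3, close to 59.4 CPM in 4a. Anln, the actin-binding anillin of the furrow, was highest in 4a at 67.8 CPM, with 49.5 CPM in 3 and a low of 22.4 CPM in 2L. Prc1, which bundles central spindle microtubules, varied least here, from 25.7 CPM in 5 over 33.5 to 65.5 CPM in 3. Kif20b, Kif4, Kif14, Kif23 and Ect2 had medians of 20.4, 21.2, 8.68, 14.0 and 19.7 CPM and were all highest in library 3.

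Genes of anaphase entry moved apart from each other. Cdc20, the activator of the anaphase-promoting complex, had 63.4 CPM in library 3 and between 7.28 and 15.98 CPM elsewhere. Espl1, which encodes separase, had 100.1 CPM in 3 and between 11.5 and 18.5 CPM elsewhere. Pttg1, which encodes securin, the inhibitor of separase, did not share this: it was highest in 2R at 12.0 CPM, lowest in 4b at 3.48 CPM and at 6.92 CPM (13 counts) in library 3. Ube2c, the ubiquitin-conjugating enzyme of the complex, ranged from 2.42 CPM in 4b over 6.68 to 27.7 CPM in 3.

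Members in library 3 thus spread widely, from -0.42 for Kif18a to 3.19 for Cit on the log2 scale relative to each gene's mean. The SD over members was 0.903 in library 3 and 0.222 to 0.380 in the other 7, while over all genes it was 1.07 and 0.484 to 0.751. The spread within a library does not depend on its scaling factor. It moved with base composition. Across the 48 members, Spearman's rho between the GC content of the longest transcript and this relative level in library 3 was 0.58. Across 11033 protein-coding genes it was 0.32. Genes of 1 library are not independent, and no test was made. All 12 members of at least 50% GC were highest in library 3, as were 25 of the 36 below. The shares of all genes on each side of 50% GC are not given here. Over protein-coding genes in 10 bins of GC content, the median in library 3 was -0.58 in the lowest bin and 0.57 in the highest. In 4b, 6 and 4a the relation across members ran the other way, with rho of -0.58, -0.47 and -0.45. Levels are relative to each gene's mean over all libraries, so a relation in library 3 pushes the others the opposite way. These values are thus not separate observations. Relative to the median of protein-coding genes in the same of 10 bins of GC content, the members' median in library 3 was 1.51, and 47 of 48 were above it. What part GC content has in the order of single members was not tested.

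**Figure D3:**
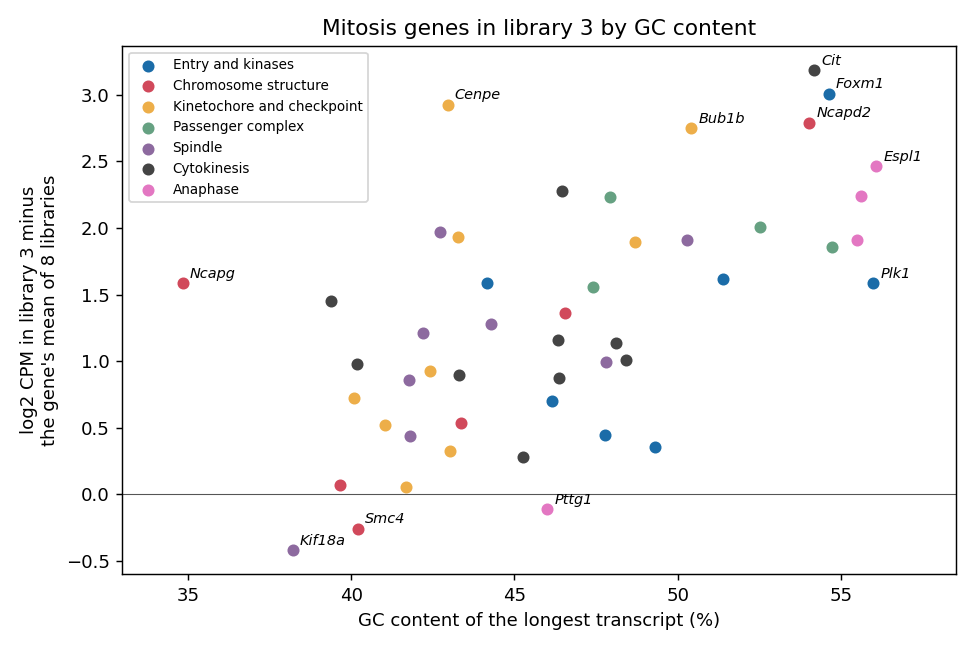
Level of each of the 48 members in library 3 (log2 CPM minus its mean of the 8 libraries) against the GC content of its longest transcript in percent, coloured by role. Cit, Foxm1 and Ncapd2, at about 54% GC, lie near the top together with Cenpe, at 42.95% GC, and Kif18a, Smc4 and Pttg1 lie below 0.

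The only structure in the labels is the title number, shared by 2L with 2R and by 4a with 4b. Between the 6 numbers, edgeR's quasi-likelihood F-test on all genes called 0 of 48 members at an adjusted p of 0.05, and 0.0% of 11505 genes. The members' adjusted p ran from 0.0974 to 0.828 with this edgeR test. Unadjusted, 22 members were below 0.05, against 24.5% of all genes. The DESeq2 likelihood ratio test called 18 members, against 20.7% of all genes, and all 18 were highest in library 3. They included Cit, Cenpe, Ncapd2, Foxm1, Bub1b and Espl1. Number 3 is 1 library, so these calls do not rest on a replicated difference. Without library 3, edgeR again called 0 members, and 0 were below 0.05 unadjusted, against 12.8% of 12658 genes. With only 2 residual degrees of freedom, a difference that misses the threshold here is not shown to be absent.

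Relative to other genes, mitosis genes were lower in 2L than in 2R almost throughout, but with library totals alone the direction turned: the list's median was then -0.14 in 2L and -0.28 in 2R, against 0.45 in 2L and -0.25 in 2R for all genes. With TMM scaling the level was lower in 2L for 44 of 48 members, against 52.5% of all genes, and the median log2 ratio of 2L to 2R was -0.64 for members and -0.04 for all genes. Past 2-fold, 0 members were higher in 2L (9.03% of all genes) and 6 were lower (8.33% of all genes), so few of the differences were large. Those 6 were Cdca8 at -1.33, Cenpa at -1.18, Birc5 at -1.10, Kif20b at -1.09, Anln at -1.02 and Ube2c at -1.004 on the log2 scale. Ube2c and Anln sit at the limit: 5 members passed it with RLE factors, where Ube2c was at -0.997, and 4 with TMM factors computed without mitochondrial and abundant noncoding genes, where Ube2c was at -0.97 and Anln at -0.98. The 4 members higher in 2L (47.5% of all genes) were Espl1 (0.63), Racgap1 (0.29), Cdk1 (0.24) and Kif4 (0.22). The libraries differ in much else: skeletal muscle markers summed to 17950 CPM in 2L and 92.3 CPM in 2R, B and plasma cell markers to 76.5 CPM in 2L and 461.5 CPM in 2R, and endothelial markers to 438 CPM in 2L and 1508 CPM in 2R, and mitochondrial genes took 1.85% of counts in 2L and 27.3% in 2R. Their part in the difference was not tested. Each side is 1 library, so there is no test, and with library totals alone 0 members were past 2-fold lower in 2L and 2 were past 2-fold higher. The share of all genes past 2-fold with totals is not given here.

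Between 4a and 4b, the members leaned towards 4a by less. Of 48 members, 39 were higher in 4a, against 48.7% of all genes, and 9 were higher in 4b, against 51.3%, with a median log2 ratio of 4a to 4b of 0.34 for members and -0.01 for all genes. Ube2c alone passed 2-fold, at 1.53 (7.25 CPM in 4a and 2.42 CPM in 4b, 32 counts), against 2.53% of all genes higher in 4a and 1.92% higher in 4b. Cdk1, Pttg1 and Ccnb2 followed at 0.93, 0.87 and 0.85, and Cit was the furthest the other way at -0.54.

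**Figure D4:**
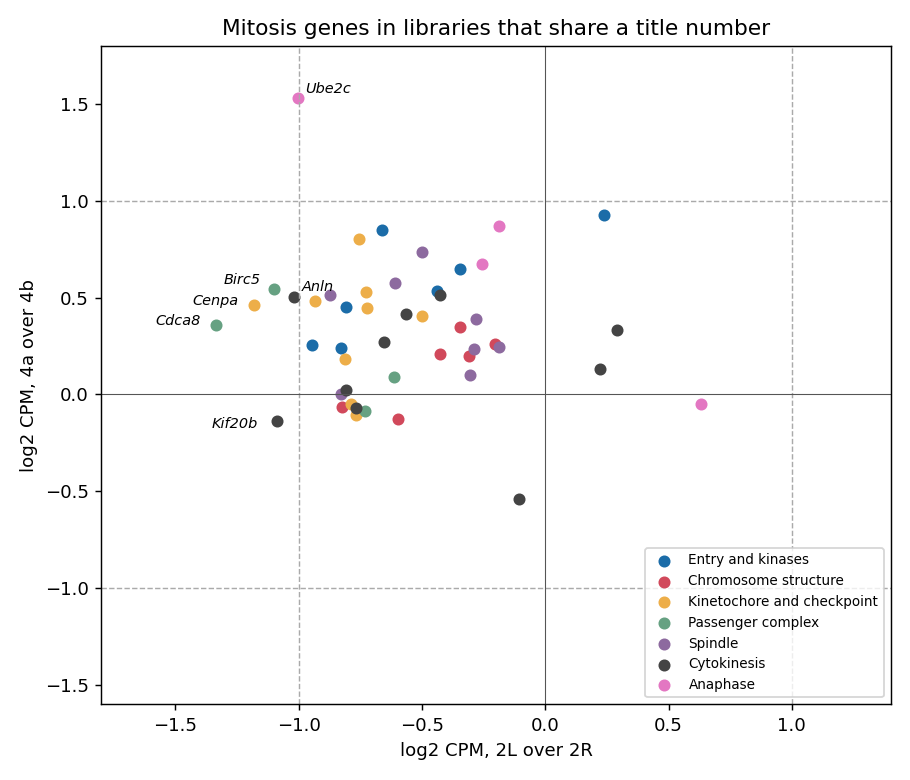
Log2 ratio of CPM of each of the 48 members in 2L over 2R (horizontal) and in 4a over 4b (vertical), coloured by role, with dashed lines at 2-fold. Most members lie in the upper left, lower in 2L than 2R and higher in 4a than 4b with TMM scaling, and Ube2c is the only one past both lines, at -1.004 for 2L over 2R, which RLE factors bring to -0.997.

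Some exons are shared with other genes, and strand handling of the counts is not stated. Of the 48 members, 14 share exon bases with another annotated gene and 6 share over 10% of them. On the same strand, where strand handling cannot separate them, Ncapd2 shares 7.53% with Scarna10 and Gm28967. Foxm1 shares 4.19% with Tex52 and Gm44596 on its strand, and Top2a 1.35% with Gm23451. The levels of these same-strand partners are not given here. The genes named below lie on the opposite strand. Ube2c shares 22.8% with Tnnc2, a troponin gene of fast muscle on the opposite strand that stood at 290 CPM in 2L, 59.1 CPM in 3 and at most 1.26 CPM elsewhere, whereas Ube2c in 2L was at 4.98 CPM. Kif20a shares 29.3% with Cdc23, which stayed between 37.1 and 60.4 CPM. Prc1 shares 11.1% with Rccd1, which like Prc1 was highest in 3 and next in 1, at 15.98 and 9.41 CPM. Exosc9, Pdzd11 and Lcorl, which overlap Ccna2, Kif4 and Ncapg, were lowest in 3, where these members were highest. The part of shared exons in the members' counts was not tested.

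Other genes of the pathway were described from lists that hold none of the 48 members. Of all genes kept, 29.6% were highest and 31.2% lowest in library 3, and DESeq2 called 20.7%, and the counts below stand beside these shares. Of 61 further mitosis genes 59 passed the filter, and 46 of them were highest in library 3, with a median of 1.32 there. By edgeR 0 of the 59 were called, and by DESeq2 26. Troap, which binds microtubules, stood at 41.01 CPM in library 3 and at most 4.002 CPM elsewhere, while Ckap5, a microtubule polymerase, was at its lowest in library 3 at 106 CPM, with a highest value of 192 CPM in 6. Ncaph2, a condensin II subunit, reached 127 CPM in 3, over a median of 73.2 CPM. Of the 18 E2F and MuvB genes, 12 were highest in 3 and DESeq2 called 8. Mybl2, which encodes B-MYB, stood at 31.96 CPM in 3 and at most 3.79 CPM elsewhere, and Tfdp1, the partner of E2F factors, at 118 CPM in 3 and at most 30.4 CPM. Rbbp4, a chromatin subunit of MuvB, was lowest in 3, at 106 CPM.

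The anaphase-promoting complex and cohesin, which most cells hold outside mitosis too, had medians below 0 in library 3. Of 16 genes of the complex and its partners, 2 were highest and 7 lowest in library 3, with a median there of -0.12 and 0 called by edgeR or DESeq2. Anapc5 spanned 175 to 210 CPM, Cdc16 was lowest in 3 at 45.3 CPM, and Anapc10 was lowest there at 3.73 CPM. Of 9 cohesin genes, 3 were highest and 5 lowest in library 3, with a median of -0.44 and 0 called by either tool, the share highest there being close to that of all genes. Rad21, the cleaved subunit, was lowest in 3 at 129 CPM, and Nipbl, the loader, lowest in 2R at 142 CPM. Of 8 G1 cyclin and kinase genes, 4 were highest in 3: Cdk4 reached 238 CPM and Cdk6 148 CPM there, and Ccnd2, a D-type cyclin, was highest in 6 at 3430 CPM.

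DNA replication genes were also mostly highest in library 3. Of 36 genes 35 passed the filter, 24 were highest in 3 and 10 in 4a, and 17 were lowest in 6 and 5 in 2L, against 16.4% and 12.2% of all genes, the count in 2L being near that share. Chaf1a, a histone chaperone subunit, stood at 101 CPM in 3 and at most 14.7 CPM elsewhere, Rrm2, a ribonucleotide reductase subunit, was highest in 4a at 98.1 CPM, and Pcna, the sliding clamp, was lowest in 3 at 19.7 CPM. Within each library, the median level per length of mitosis genes was set against that of replication genes, a difference that needs no scaling. It was -0.59 in 2L and -0.35 in 6 on the log2 scale, between -0.16 and 0.06 in 1, 2R, 4a, 4b and 5, and 0.08 in 3. These values depend on the length scaling: without it they were -0.18 in 2L, -0.07 in 6 and 0.39 in 3, and above 0 in the other 5 libraries, though 2L was the lowest with and without it. Between 2L and 2R, replication genes differed little, with a median log2 ratio of -0.05, against -0.64 for mitosis genes. The difference between the lists was not tested.

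**Figure D5:**
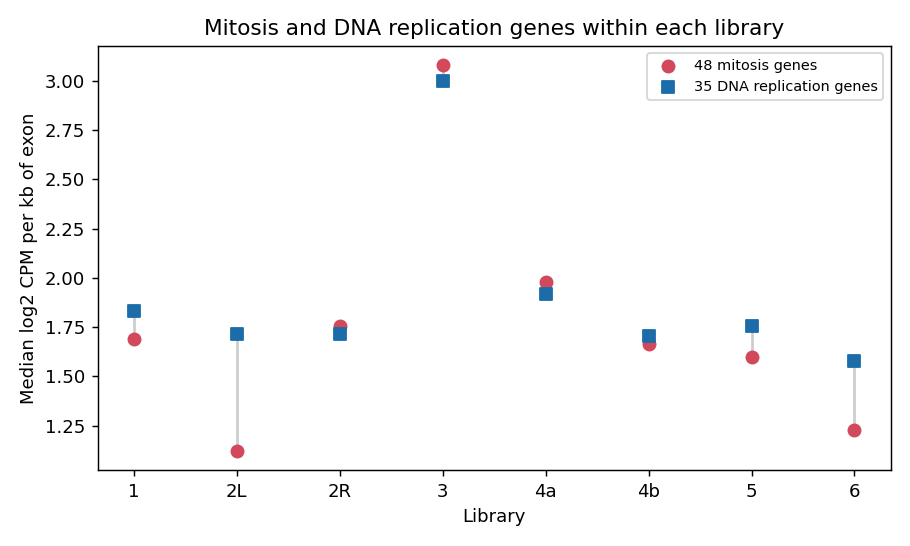
Median log2 CPM per kb of exon of the 48 mitosis genes (circles) and of 35 DNA replication genes (squares) in each of the 8 libraries. In 2L and 6 the mitosis genes lie below the replication genes, by 0.59 and 0.35 (0.18 and 0.07 without length scaling), and in library 3 both stand near 3 on the log2 scale.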

How the data were processed

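For 8 tumor libraries the authors deposited unnormalized counts for each Ensembl gene, in 1 table, made from total RNA after ribosomal RNA depletion, per the labels' protocols. The tools were RSEM, featureCounts, cutadapt and STAR 2.7.5a, and the build mm10, per the submitters' processing notes. Which tool made the counts, the annotation and strand handling are not given in the sources used here. Identifiers were matched to GENCODE M21 (mm10), which names 49412 of 49671. Members and lists were chosen with earlier results of these data known.

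In R 4.3.3 with edgeR 4.0.16, filterByExpr for 1 group required 0.92 CPM (10 counts at the median library total) in all 8 libraries and kept 11505 genes. TMM factors ran from 0.39 in library 3 to 1.36 in 2L. For log2 CPM the prior count was 2. Levels per length used the union of exons. Title numbers (6) were compared on all genes with glmQLFTest (robust), adjusted after Benjamini and Hochberg at 0.05, and with DESeq2 1.42.0 as an alternative. The fit was tested on simulated data with changes in the title number of 4a and 4b, where it missed most 2-fold changes and found most of the larger ones. A change in a number with 1 library, such as library 3, was not simulated, so the result does not cover that case. Unchanged genes had the same mean level in every simulated library. The result thus does not cover data that hold a library of different composition, such as library 3. Named genes are, per role, the 2 of highest level per length and those of largest and smallest SD, those past 2-fold in a pair (at most 5 in each direction) and 6 members peaking outside library 3, while the remaining members are given more briefly. Of each pathway list, the 2 genes of highest level per length and the 1 of largest SD are named.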

Additional observations from a re-analysis of the deposited data

Results flagged for a closer look

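For 17 of 48 members (35.4%), library 3 lay apart from the other 7. The gap to the next library, divided by the range of log2 CPM over the 8 libraries, exceeded Dixon's critical value for 8 values. Of all genes kept, 15.9% exceeded it, a share that counts a gap at either end and in any library. In a group of 8 libraries chance alone would do so for about 1 gene in 20. Ncapd2 had the widest gap at 0.819 of its range, followed by Espl1 at 0.781, Foxm1 at 0.760, Bub1b at 0.752, Kif14 at 0.740 and Kif2c at 0.711. Cit, Cenpe and Cenpf stood at 0.698, 0.697 and 0.692. Aurka stood at 0.655, Mki67 and Cdc20 at 0.638 each, Incenp at 0.624 and Aurkb at 0.617. Kif15 at 0.588, Plk1 at 0.580 and Cdca8 at 0.530 were nearest to the limit. These gaps share 1 library and are not 17 separate observations.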

How the results depend on the processing

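The count of members called among title numbers was 0 with TMM or RLE factors, with a mean CPM of at least 5 and with factors computed without mitochondrial and abundant noncoding genes. It was 18 with DESeq2 (20.7% of all genes), 3 with library totals only (3791 of 11505 genes) and 23 without the filter on low counts (20.6%). With 1 library left out it ran from 0 to 27: 26 without 2L (38.7% of all genes) and 27 without 2R (39.3%), fits in which the residual rests on 4a and 4b alone and every lone library is assumed to vary like them, and 0 without any other. The number of members sharing 1 highest library was 37 (library 3) and at most 38 under other scalings, but 32 (in 4a) with library totals, and ran from 28 (in 4a, without 3) to 44 (without 4a). The share of all genes is not given for library totals or without 4a. Members past 2-fold between 2L and 2R numbered 6, 5 with RLE, 4 with factors computed without mitochondrial and abundant noncoding genes, and 2 with library totals, now higher in 2L. At 1.5-fold they numbered 28, of which 27 were higher in 2R and 1 in 2L. Between 4a and 4b they numbered 1, and 4 with library totals and 8 at 1.5-fold, all higher in 4a. The share of all genes is given only for 2-fold with TMM, so the counts at other settings lack that background. The members' median SD was 0.591, and 0.497 with library totals and 0.384 without library 3, a setting chosen after seeing the data. The range over libraries of mitosis minus replication was 0.577 to 0.824, with 2L lowest and 3 highest throughout, but without length scaling the value in 2L was -0.18, against -0.59 with it. No paired analysis was possible because the libraries form 1 group. Depth limits library 3 most, where the median member had 92 counts.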
